A study of Mus musculus with 6 samples.

Results

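The genes described here encode the proteins of the cytosolic ribosome. The rule that picks them uses their symbols and no measured value: Rpl, Rps or Rplp followed by a number, with or without 1 further letter, and Rpsa. Symbols marked as pseudogenes and the Rps6k kinases were left out. This gave 61 of the 24675 genes on the array, 38 of the large subunit and 23 of the small subunit. The reference annotation classes 59 of the 61 as protein coding and the other 2, Rps4l and Rpl6l, as pseudogenes. Rps6, Rpl11, Rpl38, Rplp2, Rpl39 and Rps27a were not analysed here.

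The tissue came from C57Bl/6 mouse embryos at embryonic day 10.5. Ventral tissue lay beneath the dorsal aorta and dorsal tissue was taken from the strip between aortic roof and notochord. Both regions were cut by laser from stained cryosections of the same unfixed, untreated embryos, and 3 arrays were made per region. The comparison asks what distinguishes the ventral side, which the study treats as a niche of the first blood stem cells. RNA amounts of 200 to 1000 pg were amplified before hybridisation to Affymetrix Gene 2.0 ST arrays. How many embryos a sample pooled is not stated in the labels.

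The cytosolic ribosome joins a small subunit, which reads the messenger RNA, to a large subunit, which forms peptide bonds and passes the chain out through a tunnel. Its proteins are needed in about equal numbers, and their messengers carry a stretch of C and T bases at the 5′ end, the 5′ terminal oligopyrimidine tract, through which translation of the whole set follows growth signals. Blood formation is sensitive to their dose: inherited loss of 1 copy of several of them causes Diamond-Blackfan anaemia in humans, and mouse mutants in several of them have skeletal, pigment or red cell defects.

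Signals are RMA values in log2 units, and every difference is ventral minus dorsal. A signal depends on the probes as well as on the transcript, so signals of different genes do not rank transcript amounts. Array medians over all genes lay between 3.2 and 3.27. In limma with the replicate number as a block, 0 of 24675 genes passed an adjusted p of 0.05, a share of 0%, and 2522 genes, or 10.2%, had an unadjusted p under 0.05. Markers of sclerotome and notochord were lower in ventral arrays in 8 of 8 measured genes (median -0.35), with summed log2 signals of 30.3 to 31.6 in ventral and 32.6 to 35.9 in dorsal arrays. Their differences were uneven and ran from -1.40 for Twist1 to -0.02. The notochord genes Shh and Noto had -0.05 and -0.20, with overlapping groups. Of all genes 42% were higher in ventral arrays. Markers of ventral mesoderm did not separate the sides, with 3 of 8 higher in ventral arrays and a median of -0.03. Of 6 endothelial markers 4 lay below the array medians, and the erythroid markers summed to 39.7 to 58.5 in ventral and 45.3 to 54.9 in dorsal arrays. Of 6 neural markers 4 and of 5 macrophage markers 2 were higher in ventral arrays. The neural marker Sox2 had 7.61, 2.20 and 2.72 in ventral arrays, against 2.28, 2.57 and 2.73 in dorsal arrays. Nes, also neural, had 5.29, 4.06 and 3.54 in ventral arrays, against 3.63, 3.44 and 3.30 in dorsal arrays. Ventral array 1 was the highest for both. In such bulk tissue fewer cells of a type and less RNA per cell cannot be told apart, and the part of these cell types in the results on ribosomal protein genes was not tested.

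Ribosomal protein genes ranged from dim to bright. The mean over the 6 arrays ran from 2.08 for Rpl9 to 10.61 for Rps21, where all genes ran from 1.42 to 12.58, with a median of 4.62 over the 61 members and 3.24 over all genes. A mean of 5 or more was reached by 22 members, or 36.1%, against 4.49% of all genes. At the other end 18 members, or 29.5%, had a mean below the lowest array median, where a signal was not shown to be above background.

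**Figure D1:**
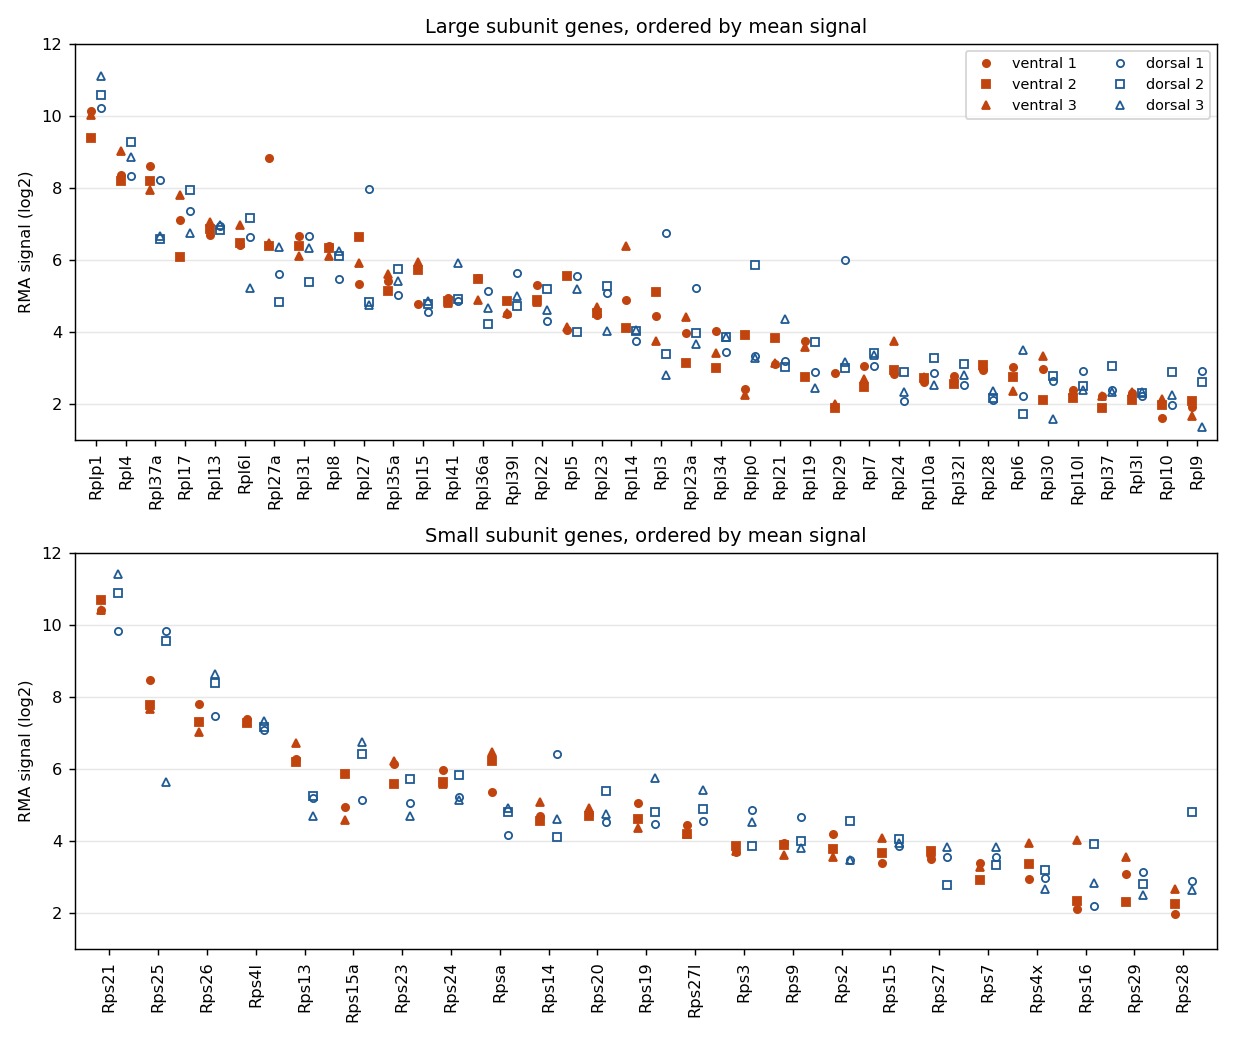
RMA signal (log2, vertical axis) of each of the 61 ribosomal protein genes in every array, large subunit above and small subunit below, ordered by mean signal; filled symbols are ventral and open symbols dorsal arrays, with 1 shape per replicate number. Signals run from about the floor of the array to above 10, and single arrays stand far from the rest for Rps25, Rpl27a, Rpl3, Rpl27 and Rpl29.

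Bright members were bright on both sides. Rps21, a small subunit protein, had 10.42, 10.69 and 10.43 in ventral arrays 1, 2 and 3, against 9.83, 10.88 and 11.44 in dorsal arrays 1, 2 and 3. Rpl4, a protein of the large subunit with a loop in the wall of the exit tunnel, had 8.37, 8.20 and 9.02 in ventral arrays, against 8.33, 9.27 and 8.85 in dorsal arrays. The groups overlapped for both genes, with log2 fold changes of -0.20 ± 0.32 and -0.29 ± 0.28 (SE). Rps26, which contacts the messenger where it leaves the small subunit, had 7.80, 7.30 and 7.03 in ventral arrays, against 7.48, 8.38 and 8.65 in dorsal arrays. Dorsal arrays 2 and 3 stood above all ventral arrays and dorsal array 1 did not, and the log2 fold change was -0.80 ± 0.38.

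The 6 dimmest members were Rpl9, Rpl10, Rpl3l, Rpl37, Rpl10l and Rpl30, with means of 2.08 to 2.56. Rpl3l is the muscle copy of Rpl3, and Rpl10l is an autosomal copy of the X-linked Rpl10 that is used in the testis. Rpl3l had 2.29, 2.11 and 2.33 in ventral arrays, against 2.21, 2.30 and 2.32 in dorsal arrays. Rpl10l had 2.39, 2.17 and 2.36 in ventral arrays, against 2.90, 2.49 and 2.38 in dorsal arrays. Rpl9, Rpl10 and Rpl37 are ordinary subunits of the ribosome, and their probe sets also gave signals below the array medians. Such a signal leaves the level of these transcripts unmeasured.

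Start sequences are shown for members whose values are described below, because the pyrimidine tract is the textbook mark of this gene family. RefSeq sequences of build GRCm38.p6 with 250 bases before and 50 after each annotated start were matched to 47 of the 61 members. The lines give 40 bases before the start and 20 bases from it. Capitals mark a C within 5 bases of the start that is followed by at least 4 bases that are each C or T. They run up to the next purine. Where several such C lay within 5 bases, the marks begin at the nearest to the start. Bases just before the capitals can therefore also be C or T.
Rpl15, chr14:18270967-18271026, minus strand: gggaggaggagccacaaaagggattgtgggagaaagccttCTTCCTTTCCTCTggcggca
Rpl27a, chr7:109519155-109519214, plus strand: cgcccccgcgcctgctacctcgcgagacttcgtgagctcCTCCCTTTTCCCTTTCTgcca
Rpl28, chr7:4792925-4792984, plus strand: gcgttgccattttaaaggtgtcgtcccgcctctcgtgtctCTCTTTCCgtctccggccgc
Rpl14, chr9:120571477-120571536, plus strand: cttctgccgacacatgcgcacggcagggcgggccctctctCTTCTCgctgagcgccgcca
Rps15a, chr7:118116128-118116187, minus strand: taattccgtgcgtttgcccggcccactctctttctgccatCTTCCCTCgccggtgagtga
Rps27, chr3:90213629-90213688, minus strand: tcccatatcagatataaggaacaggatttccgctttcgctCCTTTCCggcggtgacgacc
Rpsa, chr9:120127726-120127785, plus strand: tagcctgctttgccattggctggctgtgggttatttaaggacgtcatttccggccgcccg
Rps13, chr7:116334171-116334230, minus strand: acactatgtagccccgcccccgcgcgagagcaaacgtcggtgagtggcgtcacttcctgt
Rplp0, chr5:115559427-115559486, plus strand: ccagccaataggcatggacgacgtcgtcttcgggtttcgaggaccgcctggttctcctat

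The marked stretch was 13 bases long in Rpl15 and 17 bases in Rpl27a, and in both the run of C and T bases reached further upstream. Rpsa, Rps13 and Rplp0 had none within 5 bases of the annotated start. The base at an annotated start was itself such a C in 8 of 47 members, or 17.0%, against 2.67% of 17491 protein coding genes. Within 5 bases of the start such a C was found in 18 members, or 38.3%, against 21.5% of protein coding genes. The core letters of ETS factor sites, CGGAAG on either strand, stood in the 300-base window of 29 members, or 61.7%, against 23.5% of protein coding genes. TATAAA on either strand stood in 6 members, or 12.8%, against 14.8%. Annotated starts can be off by some bases, and a match describes the letters only. The 18 members with a tract within 5 bases had a median difference of 0.13 in log2 units and the 29 without one -0.25, a split that was not tested.

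No ribosomal protein gene passed the test between the sides. The 61 adjusted p-values in limma lay between 0.239 and 0.9995, beside 0% of all genes called. Without the block limma called 1 gene of 24675, or 0.00405%, and it was not a ribosomal protein gene. At an unadjusted p under 0.05 there were 8 members higher in ventral arrays, or 8 of 61, where 4.32% of all genes were, and 5 members higher in dorsal arrays, where 5.9% of all genes were. The groups did not overlap for 5 members higher in ventral arrays, against 6.74% of all genes, and for 5 members higher in dorsal arrays, against 12% of all genes. A fitted change of at least 2-fold was found in 5 members higher in ventral arrays (Rpsa, Rps13, Rpl37a, Rpl27a and Rpl14), against 1.32% of all genes, and in 3 higher in dorsal arrays (Rplp0, Rpl29 and Rps28), against 0.851%. Of these 8 members, Rpl29 and Rps28 had a mean below the lowest array median. The shares of all genes given here are not those of genes of like signal. A mean of 5 or more was reached by 36.1% of members and 4.49% of all genes. Genes that bright had a range of 2 log2 units or more in 26.3% of cases, against 4.11% of all genes. The 95% interval of the log2 fold change had a median half-width of 0.69 over the members, before any adjustment for the number of genes. At the adjusted threshold 0 of the 535 genes with a fitted change of at least 2-fold passed. For 23 of the 61 members the interval lay within a 2-fold change in either direction.

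**Figure D2:**
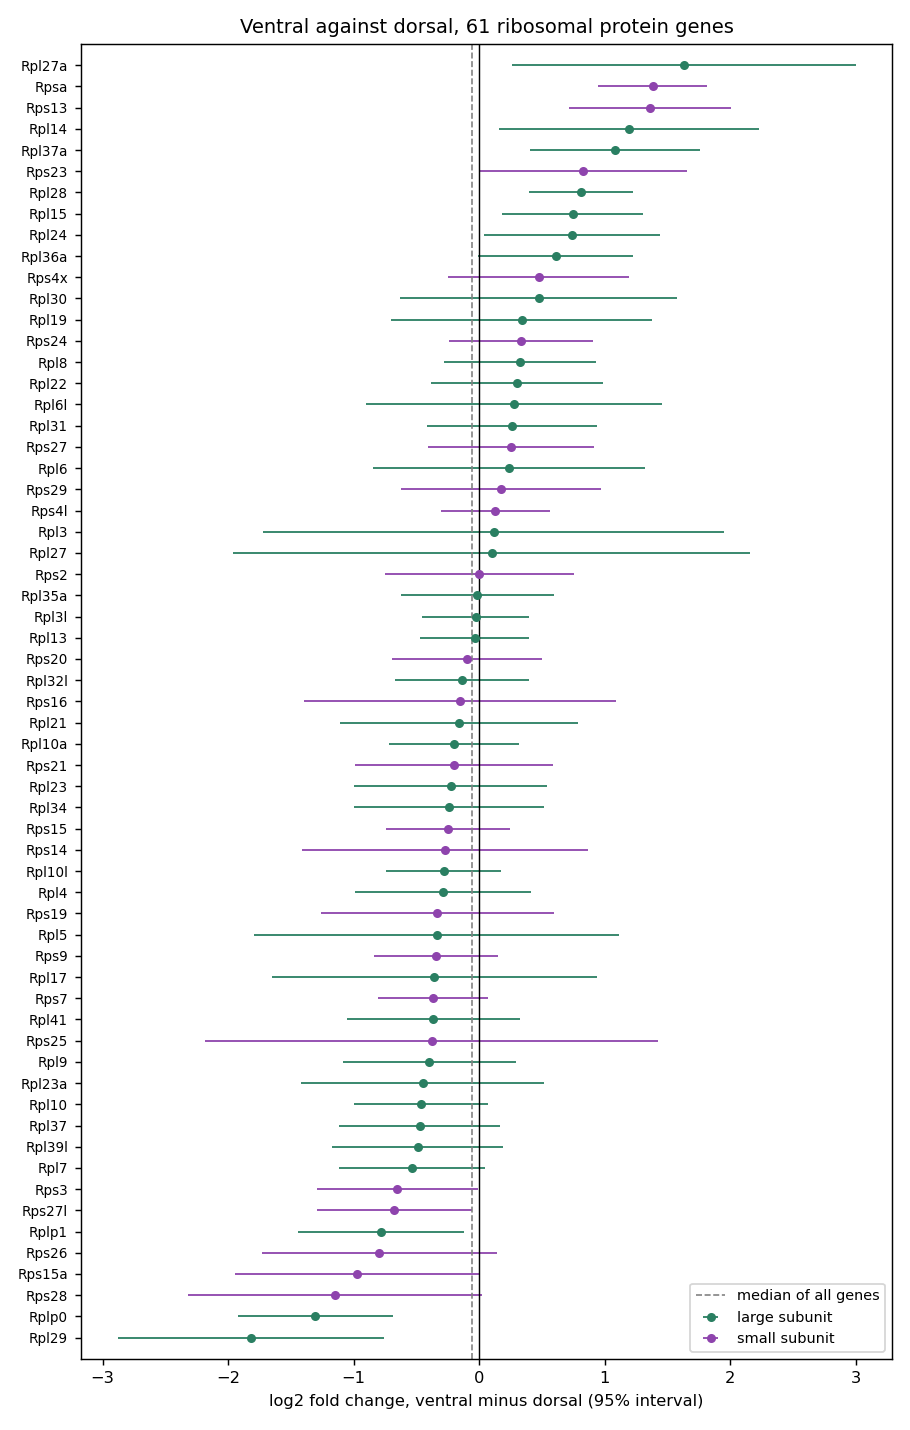
Log2 fold change of ventral minus dorsal tissue (horizontal axis) with its 95% interval from limma for the 61 ribosomal protein genes, coloured by subunit, with the median of all genes as a dashed line. Genes of both subunits stand at both ends, from 1.63 for Rpl27a to -1.82 for Rpl29, and no gene passed an adjusted p of 0.05.

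Among the members higher in ventral arrays the small subunit genes Rpsa and Rps13 had the smallest p. Rpsa, a small subunit protein also known as the laminin receptor, had 5.37, 6.21 and 6.46 in ventral arrays, against 4.18, 4.80 and 4.93 in dorsal arrays. Every ventral array was above every dorsal array, and the 3 pairs of equal number differed by 1.19, 1.41 and 1.54. The log2 fold change was 1.38 ± 0.17 (SE), with a 95% interval from 0.95 to 1.81 and an adjusted p of 0.239 in limma. Rps13, another small subunit protein, had 6.29, 6.19 and 6.72 in ventral arrays, against 5.19, 5.25 and 4.68 in dorsal arrays. The groups did not overlap here either, and the log2 fold change of 1.36 ± 0.26 had an adjusted p of 0.378 in limma, and of 0.188 without the block.

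The other 6 of the 8 members with an unadjusted p under 0.05 on this side belonged to the large subunit. Rpl28 had 2.93, 3.07 and 3.04 in ventral arrays, against 2.09, 2.16 and 2.35 in dorsal arrays. The groups were tight and apart (log2 fold change 0.81 ± 0.17, adjusted p = 0.384 in limma), but all 6 values lay below the array medians. Rpl37a, a zinc-binding protein, had 8.60, 8.18 and 7.94 in ventral arrays, against 8.23, 6.57 and 6.67 in dorsal arrays. Dorsal array 1 stood among the ventral values, and the log2 fold change of 1.08 ± 0.27 became 1.61 without that array in a fit without the block. Rpl15 had 4.77, 5.73 and 5.93 in ventral arrays, against 4.55, 4.78 and 4.87 in dorsal arrays, a log2 fold change of 0.74 ± 0.23, and the groups overlapped through ventral array 1.

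Single arrays carried much of the remaining differences. Rpl27a, whose mutation in the mouse affects skin and the cerebellum, had 8.83, 6.37 and 6.46 in ventral arrays, against 5.62, 4.82 and 6.35 in dorsal arrays. The groups did not overlap, although dorsal array 3 came close to ventral array 2, and the log2 fold change of 1.63 ± 0.55 was 0.83 without ventral array 1 in a fit without the block. Rpl14 had 4.88, 4.10 and 6.39 in ventral arrays, against 3.74, 4.01 and 4.04 in dorsal arrays. Its log2 fold change of 1.19 ± 0.42 was 0.56 without ventral array 3. Rpl24, the gene of the mouse mutant Belly spot and tail, had 2.81, 2.94 and 3.75 in ventral arrays, against 2.08, 2.87 and 2.33 in dorsal arrays, a log2 fold change of 0.74 ± 0.28 with all values but that of ventral array 3 below the array medians.

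**Figure D3:**
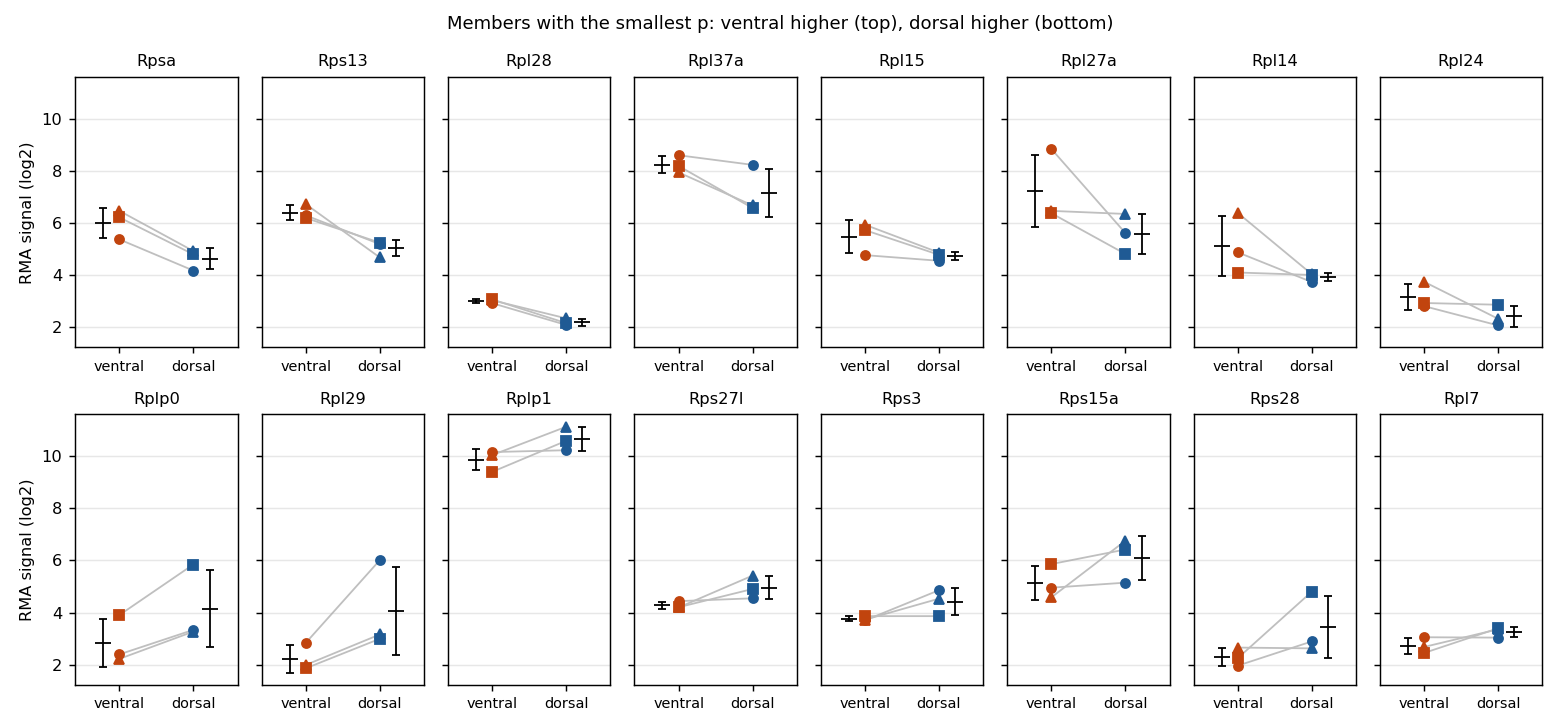
RMA signal (log2) of the 8 members with the smallest p in each direction, ventral left and dorsal right, with 1 symbol shape per replicate number, grey lines between equal numbers, and black bars for the mean and SD of 3 arrays. Rps13 and Rpl28 show groups apart by more than their spread, and the groups of Rpsa do not overlap but lie closer together than their spread. Rplp0, Rpl29 and Rps28 each hold 1 dorsal array far above the other 2.

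Both measured proteins of the stalk, the arm of the large subunit that recruits elongation factors, were higher in dorsal arrays without passing the test. Rplp0, the base of the stalk, had 2.40, 3.91 and 2.23 in ventral arrays, against 3.34, 5.84 and 3.27 in dorsal arrays. Each dorsal array was above the ventral array of its number, the groups overlapped, and both arrays numbered 2 were the highest of their side. The log2 fold change was -1.31 ± 0.25, with an adjusted p of 0.378 in limma, and -0.46 without dorsal array 2 in a fit without the block. Its unadjusted p was 0.00218 with the block and 0.119 without it. Rplp1, which binds Rplp0 as part of the stalk, had 10.15, 9.39 and 10.03 in ventral arrays, against 10.22, 10.58 and 11.12 in dorsal arrays. Those groups did not overlap, although ventral array 1 came close to dorsal array 1, and the log2 fold change was -0.78 ± 0.27 with an adjusted p of 0.464 in limma.

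Rpl29 had the lowest fitted log2 fold change of the members, from signals that were mostly below the array medians. It had 2.84, 1.87 and 1.99 in ventral arrays, against 6.00, 2.99 and 3.16 in dorsal arrays. Every dorsal array was above every ventral array, dorsal array 1 stood far above the other dorsal arrays, and the log2 fold change of -1.82 ± 0.43 was -0.84 without it in a fit without the block. All values but that of dorsal array 1 were below the array medians, so the size of the difference is uncertain. Rps28, near the messenger exit of the small subunit, had 1.97, 2.26 and 2.66 in ventral arrays, against 2.89, 4.80 and 2.63 in dorsal arrays. The groups overlapped, and the log2 fold change of -1.15 ± 0.47 was -0.47 without dorsal array 2. Here too all values but that of 1 array, dorsal array 2, were below the array medians.

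Rps27l, a copy of Rps27 known as a target of p53, had 4.44, 4.20 and 4.20 in ventral arrays, against 4.55, 4.90 and 5.42 in dorsal arrays. The groups were apart, with a log2 fold change of -0.68 ± 0.25 and an adjusted p of 0.472 in limma. Its partner Rps27 had 3.51, 3.73 and 3.67 in ventral arrays, against 3.55, 2.76 and 3.83 in dorsal arrays, with groups that overlapped and a log2 fold change of 0.25 ± 0.27. Rps3, at the messenger entry of the small subunit, had 3.70, 3.86 and 3.73 in ventral arrays, against 4.86, 3.86 and 4.53 in dorsal arrays. The groups did not overlap, but the arrays numbered 2 were equal to 2 decimals, and the log2 fold change was -0.65 ± 0.26. Rps15a (-0.97 ± 0.39) and Rpl7 (-0.54 ± 0.24) had overlapping groups and adjusted p of 0.489 and 0.508 in limma.

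The large and the small subunit had similar medians. The median log2 fold change was -0.09 over the 38 large subunit genes and -0.20 over the 23 small subunit genes, beside -0.06 over all genes. Their difference, large minus small, was 0.11, and it was -0.02 without dorsal array 2 in a fit without the block. Within the pairs numbered 1, 2 and 3 the medians were 0.006, -0.31 and 0.14 over the large subunit. Over the small subunit they were -0.04, -0.19 and 0.07. The large subunit was thus the higher in pairs 1 and 3 and the lower in pair 2. The difference taken within each pair had an SD of 0.10 over the 3 pairs, and 0.11 is not the mean of those 3 values. Ventral arrays were the higher in 16 and dorsal arrays in 22 of the large subunit genes, and in 9 and 14 of the small subunit genes. Taken over all 61 members the median was -0.15, with 25 higher in ventral arrays, or 41.0%, where 42% of all genes were. Within the pairs the median over all members was -0.04 for number 1, -0.31 for number 2 and 0.12 for number 3, so the pairs did not share a direction.

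Large subunit genes had medians of 4.24, 4.32 and 4.26 in ventral arrays 1, 2 and 3, against 4.70, 4.0 and 4.03 in dorsal arrays. Small subunit genes had medians of 4.69, 4.55 and 4.35 in ventral arrays, against 4.55, 4.80 and 4.68 in dorsal arrays. The groups overlapped in both subunits. With a mean signal of 5 or more the direction of the median turned: over 22 such members it was 0.11, with 12 higher in ventral arrays, beside 0.08 over the 1108 genes of the whole array at that signal.

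**Figure D4:**
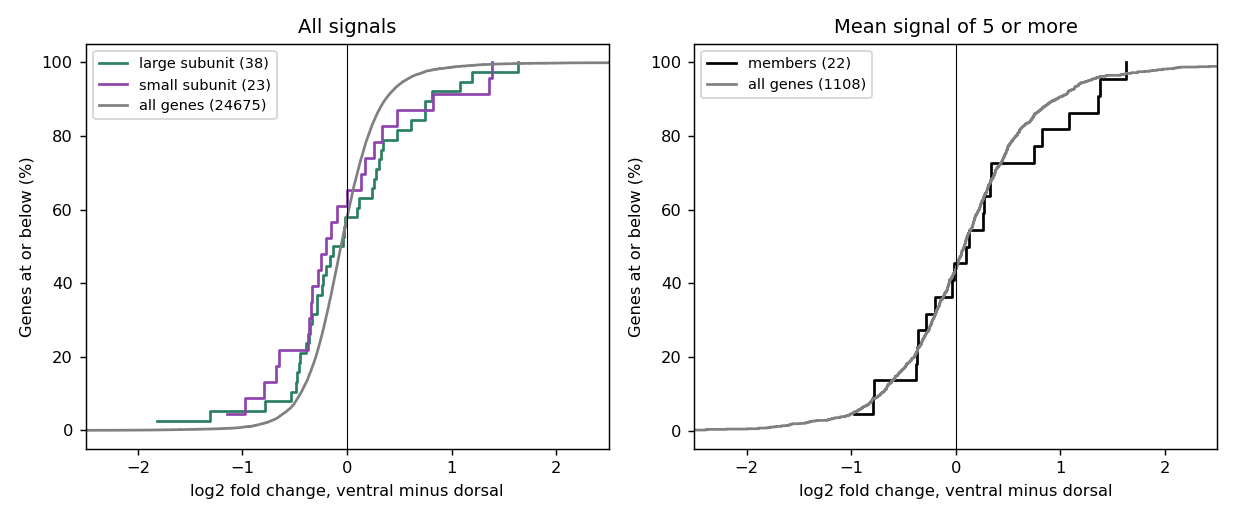
Cumulative share of genes (percent) at or below a log2 fold change of ventral minus dorsal; the left panel shows the large subunit, the small subunit and all genes, the right panel the members and all genes with a mean signal of 5 or more. The subunit curves run flatter than that of all genes and cross near 0, and among brighter genes the members lie close to the rest.

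The spread of ribosomal protein genes between arrays was wider than that of all genes, but among bright genes it was closer to the rest. The range over the 6 arrays was 2 log2 units or more in 14 members, or 23.0%, against 4.11% of all genes. Among genes with a mean of 5 or more it was 7 of 22 members, or 31.8%, against 26.3%. These 22 members had a median range of 1.61, against 1.27 over all genes at that signal, and a median SD of 0.34 in ventral and 0.56 in dorsal arrays, against 0.32 in ventral and 0.40 in dorsal arrays over all such genes. No test was made of these differences. Over all 61 members the median SD was 0.33 over the ventral and 0.48 over the dorsal arrays, and the dorsal SD was the larger in 46 of 61 members. Over all genes the same medians were 0.18 and 0.26, with the dorsal arrays again the wider. Across the 61 members Pearson correlations were 0.938 to 0.950 between ventral arrays, 0.835 to 0.885 between dorsal arrays and 0.847 to 0.913 between a ventral and a dorsal array, a description over genes, which are not replicates.

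The 14 wide-ranging members were highest in dorsal array 1 in 6 cases and in any dorsal array in 9. They were also lowest in a dorsal array in 9 cases. Rps25 had 8.47, 7.79 and 7.67 in ventral arrays, against 9.84, 9.56 and 5.65 in dorsal arrays. Dorsal arrays 1 and 2 were above and dorsal array 3 below all ventral arrays, and the log2 fold change of -0.38 ± 0.73 was 0.37 without dorsal array 1, 0.23 without dorsal array 2 and -1.73 without dorsal array 3, in fits without the block. Rpl3, which lies close to the peptidyl transferase centre, had 4.44, 5.09 and 3.74 in ventral arrays, against 6.74, 3.39 and 2.79 in dorsal arrays. Rpl27 had 5.33, 6.62 and 5.90 in ventral arrays, against 7.98, 4.83 and 4.75 in dorsal arrays. In both genes dorsal array 1 was the highest of all and dorsal arrays 2 and 3 the lowest, and the log2 fold changes were 0.12 ± 0.74 for Rpl3 and 0.10 ± 0.83 for Rpl27. In fits that left out 1 array the change of Rpl3 ran from -0.64 without dorsal array 3 to 1.33 without dorsal array 1, and that of Rpl27 from -0.45 to 1.16 for the same arrays.

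Rows of ribosomal protein pseudogenes, which the symbols set apart, were set beside their parents. The reason is that copies of these genes are nearly alike in sequence and can share probes. The array held 39 such rows, with a median log2 fold change of -0.04, and 25 of them had a parent among the members. The sign of the difference was that of the parent in 14 of 25, and the highest array was that of the parent in 5 of 25. Rpl3-ps1 had 3.99, 5.47 and 4.14 in ventral arrays, against 8.03, 3.81 and 6.03 in dorsal arrays, so it shared with Rpl3 the peak in dorsal array 1. The log2 fold changes were of opposite sign, -1.43 for Rpl3-ps1 and 0.12 for Rpl3. Rpl27-ps1 had 2.95, 2.66 and 3.00 in ventral arrays, against 6.85, 3.81 and 4.46 in dorsal arrays, and its peak was that of Rpl27. Here too the signs differed, with -2.17 for Rpl27-ps1 and 0.10 for Rpl27. Rps13-ps2 also went the other way from its parent Rps13, with 9.36, 9.32 and 8.71 in ventral arrays, against 9.68, 9.78 and 9.92 in dorsal arrays. None of the 39 rows passed the test, with a lowest adjusted p of 0.365 in limma for Rps12-ps4 and Rpl13-ps3. How far copies share the signal of a member was not tested, so members with copies are uncertain.

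**Figure D5:**
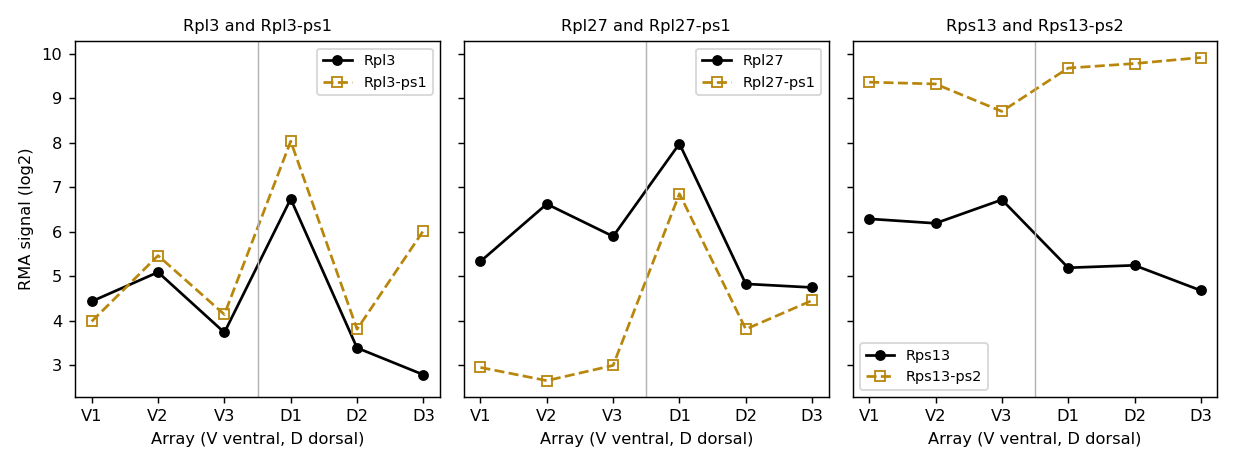
RMA signal (log2) in each array, ventral left and dorsal right of the grey line, for 3 members (solid) and a pseudogene row of each (dashed). Rpl3 and Rpl27 share their peak in dorsal array 1 with the pseudogene row, but their log2 fold changes have the opposite sign. Rps13 is higher in ventral arrays while Rps13-ps2 is lower there.

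Genes with known roles in blood formation had fitted differences of both signs, and none passed the test. The human Diamond-Blackfan genes counted 13 measured members, of which 6 were higher in ventral arrays, with a median log2 fold change of -0.02 and a range from -1.15 for Rps28 to 0.74 for Rpl15. Rpl15 was the 1 of these 13 with an unadjusted p under 0.05 in limma, where 10.2% of all genes had one. Rps19, the gene most often mutated in that anaemia, had 5.04, 4.61 and 4.35 in ventral arrays, against 4.46, 4.80 and 5.75 in dorsal arrays. Its groups overlapped, and the log2 fold change of -0.34 had a 95% interval from -1.26 to 0.59. Rps24 had 5.97, 5.64 and 5.57 in ventral arrays, against 5.22, 5.83 and 5.14 in dorsal arrays, with an interval from -0.24 to 0.90. Rps14, whose loss accounts for the anaemia of the human 5q- syndrome, had 4.69, 4.55 and 5.09 in ventral arrays, against 6.43, 4.12 and 4.60 in dorsal arrays. Dorsal array 1 was the highest, and the interval of the log2 fold change ran from -1.42 to 0.87.

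Rpl5, which carries the 5S RNA into the large subunit and binds Mdm2, had 4.04, 5.55 and 4.12 in ventral arrays, against 5.54, 3.99 and 5.20 in dorsal arrays. The pairs went in different directions, and the interval ran from -1.79 to 1.12. Rpl22, which is needed for T cell development in the mouse, had 5.30, 4.87 and 4.83 in ventral arrays, against 4.31, 5.18 and 4.60 in dorsal arrays. Rps20, a gene of dark-skinned mouse mutants, had 4.76, 4.70 and 4.92 in ventral arrays, against 4.52, 5.39 and 4.76 in dorsal arrays. Groups overlapped for both, with log2 fold changes of 0.30 ± 0.28 and -0.10 ± 0.24.

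Copies with restricted use and the shortest member gave no call. Rps4l, annotated as a transcribed pseudogene, had 7.40, 7.27 and 7.32 in ventral arrays, against 7.07, 7.18 and 7.35 in dorsal arrays, and its interval of -0.31 to 0.56 was among the narrower ones. Its X-linked relative Rps4x had 2.93, 3.37 and 3.94 in ventral arrays, against 2.98, 3.18 and 2.67 in dorsal arrays. Rpl39l, a copy of Rpl39 used in the testis, had 4.49, 4.86 and 4.52 in ventral arrays, against 5.64, 4.72 and 4.98 in dorsal arrays, a log2 fold change of -0.49 ± 0.28. Rpl41, the smallest ribosomal protein, had 4.93, 4.84 and 4.80 in ventral arrays, against 4.84, 4.90 and 5.92 in dorsal arrays, with dorsal array 3 apart from the rest. The 22 members not named singly had log2 fold changes from -0.45 to 0.83, 9 of them above 0, and adjusted p from 0.489 in limma.

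Other parts of the translation machinery gave no call either. Of 17 listed ribosomal protein genes or copies thought to fall outside the symbol pattern 12 were measured, and 10 of these lay outside it. Rps3a1, a small subunit protein, had a log2 fold change of -0.25 ± 0.25, Rps3a2 0.95 ± 0.31, Rps3a3 0.65 ± 0.37 and Fau, a ubiquitin-like fusion to Rps30, -0.46 ± 0.22. Rpl22l1, the copy of Rpl22, had 10.57, 10.15 and 10.27 in ventral arrays, against 10.34, 10.32 and 10.34 in dorsal arrays, with a 95% interval of the log2 fold change from -0.45 to 0.44. Rpl36al had -0.23, Rpl7l1 0.55, Rps12l1 0.49, Rpl9-ps6 -0.07 and Rps15a-ps4 0.48.

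Of 16 measured genes listed as elongation factors or other messengers with a pyrimidine tract 10 were higher in ventral arrays. Their median log2 fold change was 0.05. Their start sequences were not examined for the tract. In each direction 1 gene had an unadjusted p under 0.05, where 4.32% of all genes did with ventral and 5.9% with dorsal arrays higher. Eef2, the translocation factor, had 8.06, 7.61 and 8.20 in ventral arrays, against 7.38, 7.47 and 6.17 in dorsal arrays, and Btf3, part of the nascent chain complex, had 4.08, 5.03 and 4.70 in ventral arrays, against 5.16, 5.42 and 5.53 in dorsal arrays. The groups were apart for both, with adjusted p of 0.484 and 0.437 in limma. The 76 mitochondrial ribosomal protein genes had a median log2 fold change of -0.07. Of these 31 were higher in ventral arrays, or 40.8%, where 42% of all genes were. An unadjusted p under 0.05 was found in 0 with ventral and 4 with dorsal arrays higher, against 4.32% and 5.9% of all genes. Mrpl52 had 6.74, 6.64 and 6.87 in ventral arrays, against 7.43, 7.09 and 7.30 in dorsal arrays, with groups apart and an adjusted p of 0.462 in limma.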

How the data were processed

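The authors deposited 1 RMA value on the log2 scale per probe set and array. Per the submitters' processing notes they used Affymetrix Expression Console and RMA, no version being stated. The log base was inferred from the range of the values. A genome build for the probe sets was not found in the labels. Of 25429 probe sets 24675 had 1 gene symbol in the platform annotation, 0 had several and 754 were not listed. These were fitted with limma 3.58.1 under R 4.3.3 (lmFit, eBayes, two-sided, no filter on dim genes, Benjamini-Hochberg over all genes, threshold 0.05), with the replicate number as a block, since per the labels the 2 regions were isolated from shared embryos. Whether a number marks 1 embryo is not said. Deviations from the group means correlated at 0.04, -0.01 and 0.06 for numbers 1, 2 and 3, which does not show pairing. The fit was tested on simulated data. An exact permutation test of 3 against 3 arrays cannot go below 0.1, so no such test is given. The number of arrays limits the precision, and the p-values reflect only how these samples spread, which may be technical.

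The rule for the members uses symbols only, but this gene family and the lists were chosen with earlier results of these data known. Named members are the 8 with the smallest p in each direction, the 6 brightest, 6 dimmest and 6 widest in range, and 25 fixed names, of which 19 were measured; at most 3 genes are named from other lists, apart from the copies outside the pattern. The pseudogene rows Rpl3-ps1 and Rps13-ps2 were chosen after their values were seen. Scan dates and detection calls were not used here.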

Additional observations from a re-analysis of the deposited data

How the results depend on the processing

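No named member passed the threshold in any of 605 fits over 39 members and 16 alternatives, but 14 of the 39 changed sign under at least 1 of them. Without the replicate block, 1 gene of 24675 was called in place of 0, no member was called, and 8 and 6 members had an unadjusted p under 0.05 in the ventral and dorsal direction. Over all 24675 genes those counts were 1077 and 1688. The dorsal count of 5 members was 3 with genes under the median left out and 3 with an intensity trend and robust eBayes. Over all genes the dorsal counts in these settings were 492 of 12338 and 1607 of 24675. Dorsal members whose groups did not overlap were 3 after cyclic loess and 3 with genes under the median left out, against 5. The share of all genes without overlap was not computed in these settings. The large minus small difference of 0.11 was 0.22 with genes under the median left out and -0.030 over members with a mean of 5 or more, where the medians were 0.11 over all members and 0.13 over the small subunit. The cause of these shifts was not tested. Among all genes with an unadjusted p under 0.05 the ventral share was 42.2%, 52.4% after cyclic loess and 53.5% after median centring; the median of all members stayed negative under both, at -0.13 and -0.11. Leaving out the 2 members annotated as pseudogenes, an alternative added after seeing the data, gave -0.16.

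Leaving out both arrays of a number, or 1 array in fits without the block, gave 0 to 5 genes called, 0 members called, 5 to 9 ventral and 1 to 8 dorsal members with an unadjusted p under 0.05, and medians of -0.17 to -0.03 over all members, -0.16 to 0.00072 over the large and -0.28 to -0.055 over the small subunit. Over all 24675 genes 819 to 1146 had an unadjusted p under 0.05 in the ventral and 946 to 2089 in the dorsal direction. The large minus small difference ran from -0.016, without dorsal array 2, to 0.14. Groups did not overlap for 7 to 12 ventral members (10 without dorsal array 2) and 7 to 17 dorsal members (11 without dorsal array 1 or without both arrays numbered 2, 10 without ventral array 1), since fewer arrays overlap less often. The share of all genes without overlap was not computed for these fits, so the counts have no background beside them. The count of dorsal members with an unadjusted p under 0.05 was 1 without ventral array 3, 2 without ventral array 2, and 8 without dorsal array 1 or without both arrays numbered 1. In the same order, the dorsal counts over all genes were 1145, 946, 2089 and 1203. Signals below the array medians limit what can be said of the 18 dimmest members.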

Other observations

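Regulators of ribosomal protein synthesis were measured in 19 of 24 listed genes, with a median log2 fold change of -0.02 and 8 higher in ventral arrays. Rps6ka6, a kinase of the ribosomal S6 kinase family, had 4.44, 3.90 and 3.61 in ventral arrays, against 3.49, 3.57 and 3.2 in dorsal arrays. Mycl had 2.57, 2.54 and 2.83 in ventral arrays, against 3.00, 3.16 and 3.09 in dorsal arrays. The groups did not overlap for either, and both had an adjusted p above the threshold in limma, 0.466 for Rps6ka6 and 0.488 for Mycl. All Mycl values lay below the array medians. Groups without overlap were found for 1 of the 19 in each direction. Over all genes the share was 6.74% with ventral and 12% with dorsal arrays higher. Myc, a transcription factor that drives ribosome production, had 3.77, 3.89 and 5.41 in ventral arrays, against 3.19, 3.81 and 4.08 in dorsal arrays, with ventral array 3 apart from the rest and a log2 fold change of 0.67 ± 0.27.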
